A study of Mus musculus with 12 samples.

Results

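The 10 genes described here encode the precursors of neuropeptides made by neurons of the spinal dorsal horn: Tac1, Tac2, Penk, Pdyn, Sst, Npy, Cck, Grp, Gal and Nts. They were listed by name with no threshold on a measured value, though with earlier results of these data known, and all 10 were matched by mouse gene symbol among the 49548 genes of each count file. The measurements came from RNA-sequencing of the lumbar spinal cord of untreated mice aged 30 days, with 1 library per sample. Of the 12 libraries, 8 came from MFN2 mice and 4 from WT mice. The MFN2 mice are named CMT2A in the labels, after a form of Charcot–Marie–Tooth disease, and are of the MitoCharc1 line on a B6;D2 background, with the transgene Tg(Eno2-MFN2*R94Q). The transgene is the human MFN2 cDNA with the R94Q change under the rat Eno2 promoter, which is active in neurons, and these mice also keep their own Mfn2. The WT mice are labelled C57BL/6, whereas the paper's methods describe its WT mice as littermates. By the labels, strain background and transgene cannot be told apart in any comparison of MFN2 with WT mice. Libraries 41 to 43 (MFN2) and 44 to 47 (WT) carry neighbouring numbers, whereas libraries 72 to 76 are all MFN2, so that in the latter the run of library numbers and the genotype cannot be told apart. Between 19359454 and 26738930 reads were counted per library.

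Neuropeptides are cut from a larger precursor protein inside dense-core vesicles, released during strong or repeated firing, and act on G protein-coupled receptors at some distance from the release site. In the dorsal horn, where pain, itch and touch signals from the skin enter the cord, they mark separate groups of local neurons. The enkephalins (Penk) and dynorphins (Pdyn) are opioids, substance P (Tac1) and neurokinin B (Tac2) are tachykinins that excite their targets, and somatostatin (Sst) and neuropeptide Y (Npy) dampen them. Cholecystokinin (Cck), gastrin-releasing peptide (Grp) and neurotensin (Nts) are carried mainly by excitatory interneurons, and galanin (Gal) by sensory and local neurons. In whole cord, fewer cells of a type and less RNA per cell cannot be told apart.

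The 10 genes lie apart in the genome. In GRCm38, Tac1 is at chr6:7554879-7565834 and Npy at chr6:49822710-49829507, both on the plus strand. Tac2 (chr10:127724478-127731768, plus) and Nts (chr10:102481756-102490486, minus) share chromosome 10. Penk is at chr4:4133531-4138819, Pdyn at chr2:129686565-129699844, Sst at chr16:23889573-23890958, Cck at chr9:121489824-121495694 and Gal at chr19:3409915-3414544, all on the minus strand. All 10 are protein-coding genes. An exon of Penk overlaps the antisense gene A830012C17Rik, which was counted at 0.480 to 1.49 CPM (read counts scaled to a common library total) in the 12 libraries, where Penk was at 74.8 to 183 CPM. The libraries were made with a stranded kit, but whether the counting used strand is not given in the sources used here.

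Several neuropeptide genes are known for the cyclic AMP response element, bound by CREB when neurons are active, and its letters were looked for in the promoters. RefSeq promoters (GRCm38.p6; 250 bases before to 50 bases after the start) were matched for 8 of the 10 genes, with a pair of promoters for Pdyn; Penk and Grp were not matched. The whole element, TGACGTCA, which reads the same on both strands, was found in 1.79% of all 32851 promoters, and among the 8 genes in Sst. The shorter form TGACG, read on either strand (as TGACG or CGTCA, which the whole element also holds), was found in 20.8% of all promoters and in those of 5 of the 8 genes, Tac1, Cck, Nts, Sst and Gal. The 30-base windows around the matches that lie before the start are shown with the matched letters in capitals. They are at chr16:23890874-23890903 (Sst), chr9:121495724-121495753 (Cck) and chr10:102490567-102490596 (Nts), all minus strand, and chr6:7554852-7554881 and chr6:7555006-7555035 (Tac1, plus strand). The starts are those of the RefSeq promoters and can differ from the ends of the gene spans given above. The Sst window and the Tac1 window 43 bases before the start thus lie inside those spans, and the other Tac1 window reaches into the Tac1 span. A match describes these letters and was not tested as a binding site.
Sst, 48 bases before the start: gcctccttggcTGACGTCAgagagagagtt
Cck, 47 bases before the start: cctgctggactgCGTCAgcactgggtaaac
Nts, 166 bases before the start: attagggaagatCGTCActttccatcaagg
Tac1, 197 bases before the start: tccctaaaattgCGTCAtttcgaacacaat
Tac1, 43 bases before the start: gctctacaggctCGTCAcgcctgagataaa

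One library carried the marks of lumbar cord at reduced levels. In MFN2 library 43 the 9 Hox genes that mark thoracic and lumbar levels summed to 50.4 CPM, against 299 to 364 CPM in the other 11 libraries, and 8 of the 9 were lowest there; Hoxb8 was the most abundant of them in every library. Motor neuron markers were lowest there in 7 of 7 genes, with a sum of 362 CPM against 1764 to 3178 CPM elsewhere. Markers of cortical and hippocampal projection neurons were highest there in 10 of 10 genes and summed to 4736 CPM, against 111 to 209 CPM in the others. Camk2a led that list in all 12 libraries and reached 1920.1 CPM in library 43; Slc17a7, a vesicular glutamate transporter, was at 1032 CPM there against at most 13.6 CPM elsewhere, and Emx1, at 0 in 7 libraries, was at 6.76 CPM. Striatal markers (168 CPM against 39.5 to 60.2) and forebrain interneuron markers (38.4 CPM against 2.29 to 6.11) were also higher in sum. Of these, 5 of 6 and 4 of 5 genes were highest in library 43. Drd2 was instead lowest there, at 6.05 CPM against 6.52 to 12.1 CPM, and Npas1, at 4.13 CPM, lay within the 2.25 to 5.88 CPM of the others. Hypothalamic and cerebellar markers stayed at or below 0.663 and 1.88 CPM in sum in all 12 libraries, as did those of dorsal root ganglion neurons at 2.22 CPM; Gabra6, a cerebellar granule cell gene, was at 0 in 10 libraries and Mrgprd, a sensory neuron gene, in 7. Of all genes tested, 25.9% were highest and 28.7% lowest in library 43, which is the background for such counts here and in what follows. The library is labelled spinal cord and was kept under its label, but its tissue is in doubt: whether it holds forebrain tissue was not tested further, and its own levels may not be those of lumbar cord. The genotype comparisons of the 10 precursors are therefore given with and without it.

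Compared per exon length, as CPM per kilobase of exon (RPKM), somatostatin and enkephalin precursors stood far above the other 8. Over the 11 libraries without library 43 the level was 114 ± 38.1 RPKM for Sst and 84.2 ± 17.8 for Penk (mean ± SD), and Sst was above Penk in 11 of 12 libraries although their ranges overlapped. Every library's Penk level was above the highest Cck level of 16.7 RPKM in those 11. Cck followed at 13.4 ± 1.45 RPKM, Nts at 10.5 ± 2.90 and Npy at 9.55 ± 3.496, and the ranges of these 3 neighbours overlapped, with Nts above Npy in 5 of 12 libraries. Tac2 stood at 5.92 ± 1.74, Gal at 4.95 ± 1.62 and Tac1 at 3.74 ± 0.928 RPKM, again with overlapping ranges. Pdyn was at 2.96 ± 0.879 RPKM and Grp was lowest at 1.96 ± 0.667. Grp was below Pdyn in all 12 libraries. In library 43 the order differed, with Sst at 208 RPKM followed by Cck at 124, Penk at 57.4 and Npy at 40.6, and Gal was lowest at 0.595 RPKM.

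**Figure D1:**
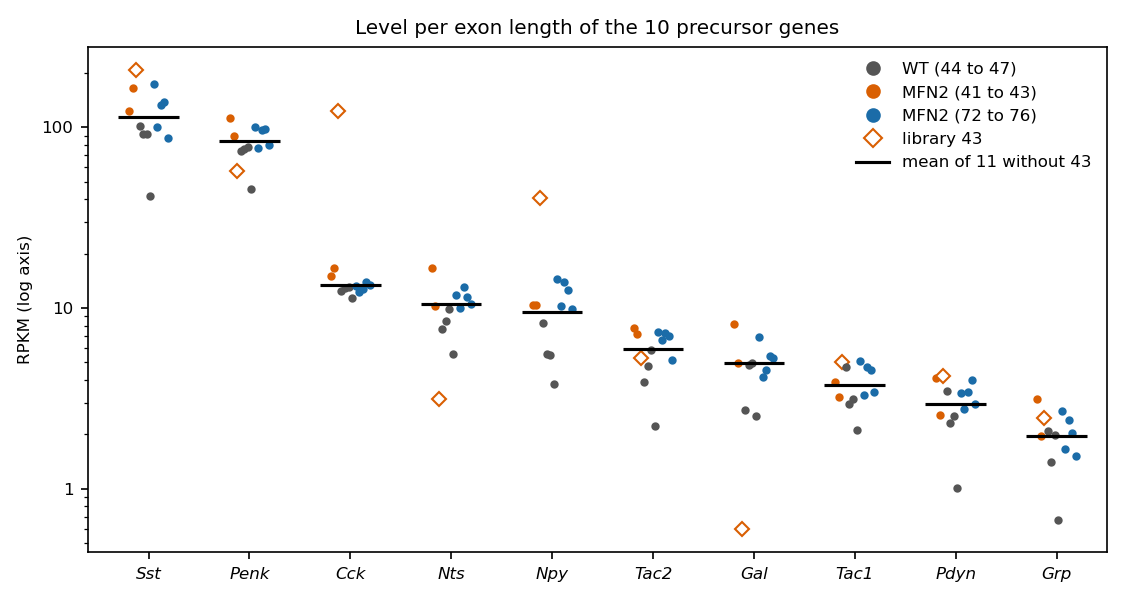
Level of each of the 10 precursor genes in RPKM (log axis), 1 point per library, coloured by genotype and run of library numbers, with a line at the mean of the 11 libraries without library 43 (open diamond). Sst and Penk lie above the other 8 genes in those 11 libraries, and Cck and Npy of library 43 lie far above their own other points while Gal and Nts lie below.

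Cck varied least between libraries and the other precursors more. Without library 43 the coefficient of variation was 10.8% for Cck and 21.1% for Penk, and between 24.8% (Tac1) and 36.6% (Npy) for the other 8. These values pool both genotypes. Within the 7 MFN2 libraries without library 43 the coefficient was 16.4% for Npy, 18.8% for Tac1 and at most 26.4% (Grp). Within the 4 WT libraries Cck again varied least, at 6.23%, and Pdyn and Grp varied most, at 43.4% and 42.4%. Library 47 widened both of these. It was at 2.92 CPM for Pdyn against 6.64 to 9.997 CPM in the other WT libraries. For Grp it was at 0.991 CPM against 2.07 to 3.10 CPM.

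The opioid precursors were higher on average in MFN2 than in WT mice, with overlapping groups. Penk levels in the WT libraries 44 to 47 were 121, 124, 127 and 74.8 CPM, those in MFN2 libraries 41 to 43 were 183, 146 and 93.8 CPM, and those in libraries 72 to 76 were 164, 125, 158, 159.9 and 129.8 CPM. Library 47 was the lowest of all 12 and library 43 the next lowest. The log2 fold change of MFN2 over WT was 0.38 (SE 0.18, adjusted p = 0.337) over all 12 libraries and 0.45 (SE 0.14, adjusted p = 0.132) without library 43. Pdyn was at 9.997, 6.64, 7.31 and 2.92 CPM in WT, at 11.9, 7.41 and 12.2 CPM in libraries 41 to 43 and at 9.75, 7.98, 9.94, 11.6 and 8.46 CPM in libraries 72 to 76. WT library 44 lay among the MFN2 values, and library 47 again lay lowest. The Pdyn log2 fold change was 0.56 (SE 0.25, adjusted p = 0.326) over all 12 libraries.

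Of the tachykinins, Tac2 separated the genotypes more than Tac1 did. Tac2 levels were 5.37, 6.55, 8.06 and 3.08 CPM in WT, 10.7, 9.85 and 7.27 CPM in libraries 41 to 43, and 10.1, 9.18, 10.1, 9.60 and 7.09 CPM in libraries 72 to 76. WT library 46 exceeded MFN2 libraries 43 and 76, and the other 3 WT libraries lay below every MFN2 library. The Tac2 log2 fold change was 0.68 (SE 0.21, adjusted p = 0.263) over all 12 libraries and 0.72 (SE 0.20, adjusted p = 0.103) without library 43. Tac1 was at 16.1, 10.03, 10.7 and 7.20 CPM in WT, at 13.2, 10.9 and 16.99 CPM in libraries 41 to 43 and at 17.2, 11.3, 16.1, 15.4 and 11.6 CPM in libraries 72 to 76. WT library 44 was among the 4 highest of the 12, so the groups overlapped, and the log2 fold change was 0.36 (SE 0.20, adjusted p = 0.392).

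Neuropeptide Y showed the clearest difference of the 10, with every MFN2 library above every WT library. Npy levels were 4.67, 3.16, 3.10 and 2.14 CPM in WT, 5.87, 5.92 and 23.0 CPM in libraries 41 to 43, and 8.22, 5.82, 7.89, 7.08 and 5.61 CPM in libraries 72 to 76. Library 43 was at 3.95 times the median of the other 11, and the 7 other MFN2 libraries lay close together above the WT range. Over all 12 libraries the log2 fold change was 1.40 (SE 0.41, adjusted p = 0.262), and levels did not overlap with MFN2 higher for 0.979% of the genes tested. Without library 43 it was 1.02 (SE 0.19, 2.02-fold), and the adjusted p of 0.0578 stayed above the threshold of 0.05.

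Somatostatin was the most abundant of the 10 per exon length, though below Penk in CPM over the 11 libraries without library 43, and followed the same order of groups with more overlap. Sst levels were 73.8, 66.4, 66.3 and 29.9 CPM in WT, 89.1, 119 and 149.8 CPM in libraries 41 to 43, and 125, 72.6, 96.2, 99.6 and 62.8 CPM in libraries 72 to 76. MFN2 library 76 lay below 3 of the 4 WT libraries, and library 43 was highest. The log2 fold change was 0.78 (SE 0.26, adjusted p = 0.278) over all 12 libraries and 0.68 (SE 0.25, adjusted p = 0.171) without library 43.

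Neurotensin and galanin ran the other way in library 43. Nts was at 9.60, 10.6, 12.3 and 6.94 CPM in WT, at 20.8, 12.9 and 3.89 CPM in libraries 41 to 43 and at 14.7, 12.5, 16.3, 14.4 and 13.1 CPM in libraries 72 to 76. Apart from library 43, which was 3.30-fold below the median of the others, every MFN2 library lay above every WT library, although library 73 exceeded WT library 46 by little. The log2 fold change was 0.46 (SE 0.31, adjusted p = 0.476) with library 43 and 0.60 (SE 0.16, adjusted p = 0.103) without it, when levels did not overlap with MFN2 higher for 1.37% of the genes tested. Gal was at 2.14, 3.81, 3.90 and 1.98 CPM in WT, at 6.41, 3.93 and 0.469 CPM in libraries 41 to 43 and at 5.45, 3.26, 3.58, 4.30 and 4.18 CPM in libraries 72 to 76. The value in library 43 rests on 10 reads and was 8.31-fold below the median of the others. The Gal log2 fold change was 0.42 (SE 0.45, adjusted p = 0.649) with library 43 and 0.59 (SE 0.24, adjusted p = 0.188) without it.

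Cholecystokinin differed little between genotypes once library 43 was left out. Cck was at 16.3, 16.9, 17.1 and 14.8 CPM in WT, at 19.6, 21.8 and 161 CPM in libraries 41 to 43 and at 17.3, 16.0, 16.6, 18.2 and 17.4 CPM in libraries 72 to 76. Library 43 was 9.46 times the median of the others, whose values all lay between 14.8 and 21.8 CPM. Its log2 fold change was 1.15 (SE 0.69, adjusted p = 0.423) with library 43 and 0.16 (SE 0.09, 95% confidence interval -0.03 to 0.35, adjusted p = 0.316) without it. Grp (chr18:65872820-65886596, plus strand), which encodes a peptide of itch circuits and was the rarest of the 10 per length, was at 3.10, 2.07, 2.92 and 0.991 CPM in WT, at 4.65, 2.90 and 3.66 CPM in libraries 41 to 43 and at 3.998, 2.46, 3.54, 3.02 and 2.24 CPM in libraries 72 to 76. The groups overlapped broadly, and the Grp log2 fold change was 0.54 (SE 0.28, adjusted p = 0.372).

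**Figure D2:**
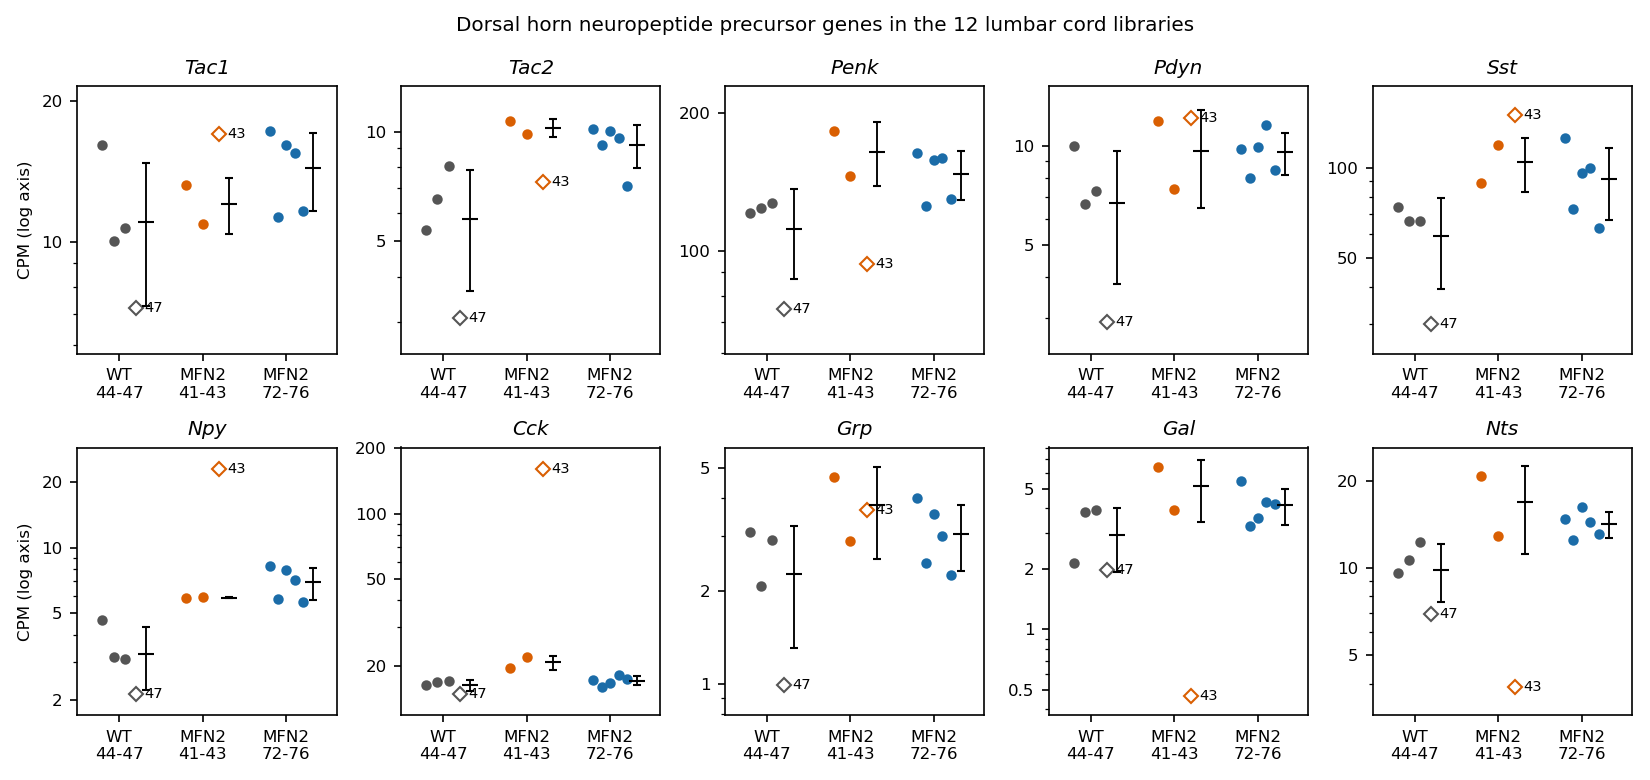
Level of each precursor gene in CPM (log axis) in the 4 WT libraries and in MFN2 libraries 41 to 43 and 72 to 76, 1 point per library, with mean ± SD drawn without library 43. Npy is higher in all 8 MFN2 libraries than in any WT library, library 47 (open diamond) is the lowest WT point in every panel, and library 43 (open diamond) is far out for Cck, Npy, Gal and Nts.

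Over all 12 libraries, all 10 precursors had a positive log2 fold change, as did 8094 of the 15942 genes tested, and none passed the threshold of 0.05 on the adjusted p. No gene of the 15942 did (0% called by edgeR's quasi-likelihood test); 2386 (15%) had an unadjusted p under 0.05, and DESeq2 called 200, with Npy among them (adjusted p = 0.0332). Among the 10, Tac2, Pdyn, Sst and Npy had an unadjusted p under 0.05 and a positive change, against 7.4% of all genes. The median log2 fold change of the 10 was 0.55, beside 0.0038 over all genes tested. Without library 43, 19 of 15835 genes passed (0.12%), none of them among the 10. The median of the 10 was then 0.55, and 6 of them (Tac2, Penk, Sst, Npy, Gal and Nts) had an unadjusted p under 0.05 with a positive change, against 10.7% of all genes.

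WT library 47 was the lowest WT library for all 10 genes, by a wide gap for Penk and Sst and by little for Gal (1.98 CPM against 2.14 CPM in library 44). Without library 43, it held the lowest level of all 10 precursors among 11 libraries, whereas it was lowest for 12.6% of the genes tested. Against the mean of the other 3 WT libraries it was 2.73-fold lower for Pdyn, 2.72-fold for Grp, 2.30-fold for Sst and 2.16-fold for Tac2, and 1.13-fold for Cck. Dorsal horn identity genes moved with it, as 12 of 19 were lowest of the 11 in library 47, among them the transcription factor genes Lmx1b (7.36 CPM against 15.4 to 21.5 in the other 3 WT libraries), Lbx1 (8.82 against 12.4 to 18.3) and Ebf2 (6.42 against 16.1 to 22.7). In the opposite direction, 5 of 7 motor neuron markers were highest of the 11 there, as were 9.91% of the genes tested. The motor neuron list summed to 3050 CPM against 1792 to 2615 CPM in the other 3 WT libraries. Its sums in MFN2 libraries 75 and 76 were higher still, at 3102 and 3178 CPM. Most of these sums was Nefh, at 2680, 2839 and 2939 CPM in libraries 47, 75 and 76, and Nefh was not highest in library 47. Among the 5 that were, Slc5a7 was at 130 CPM there against at most 84.7 CPM in the other 10 libraries, and Slc18a3 at 63.0 against at most 39.4 CPM. Of the 9 Hox genes, 3 were lowest of the 11 in library 47 (Hoxb8 at 74.4 CPM against 103 to 149, Hoxa9 and Hoxa10) and 1, Hoxc8, was highest at 69.2 CPM, and the Hox sum of 299 CPM was the lowest of the 11. Hox levels also varied among other libraries, with Hoxd10 at 0.235 CPM in WT library 45 and 23.3 CPM in WT library 44. The part of these shifts in the genotype differences was not tested.

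Leaving out both library 43 and library 47, a choice made after the values were seen, all 10 log2 fold changes stayed positive and were smaller than without library 43 alone, and 2 of 15763 genes passed (0.0127%). They were then 0.86 (SE 0.18, adjusted p = 0.198) for Npy, 0.52 (adjusted p = 0.22) for Tac2, 0.47 (adjusted p = 0.284) for Sst and 0.46 (adjusted p = 0.25) for Nts. For Penk the value fell from 0.45 without library 43 alone to 0.30, and over all 12 libraries from 0.38 to 0.22 when library 47 alone was left out. For Pdyn the value fell from 0.51 without library 43 alone to 0.26, for Grp from 0.52 to 0.27 and for Tac1 from 0.31 to 0.16.

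**Figure D3:**
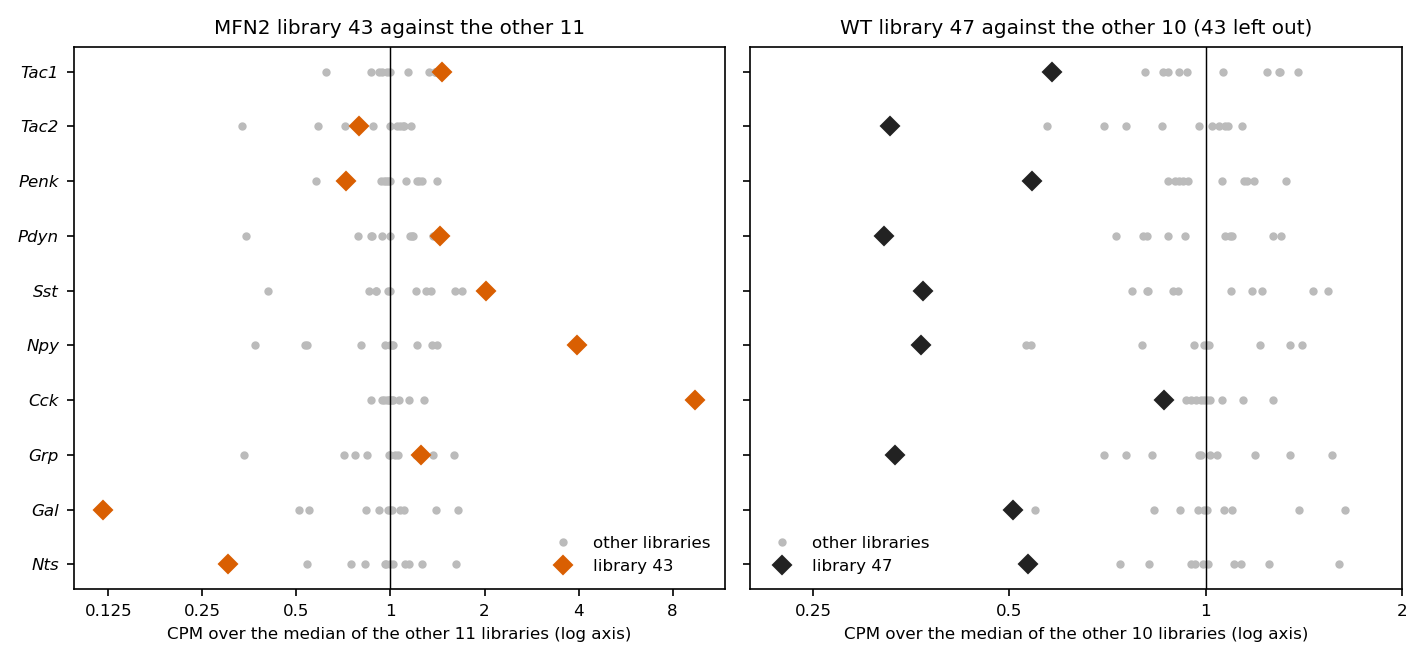
Level of each precursor gene in library 43 (left, diamonds) over the median of the other 11 libraries and in library 47 (right, diamonds) over the median of the other 10, both on a log axis, with the other libraries as grey points. Library 43 reaches 9.46 for Cck and 0.12 for Gal, and library 47 lies left of every grey point for all 10 genes.

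**Figure D4:**
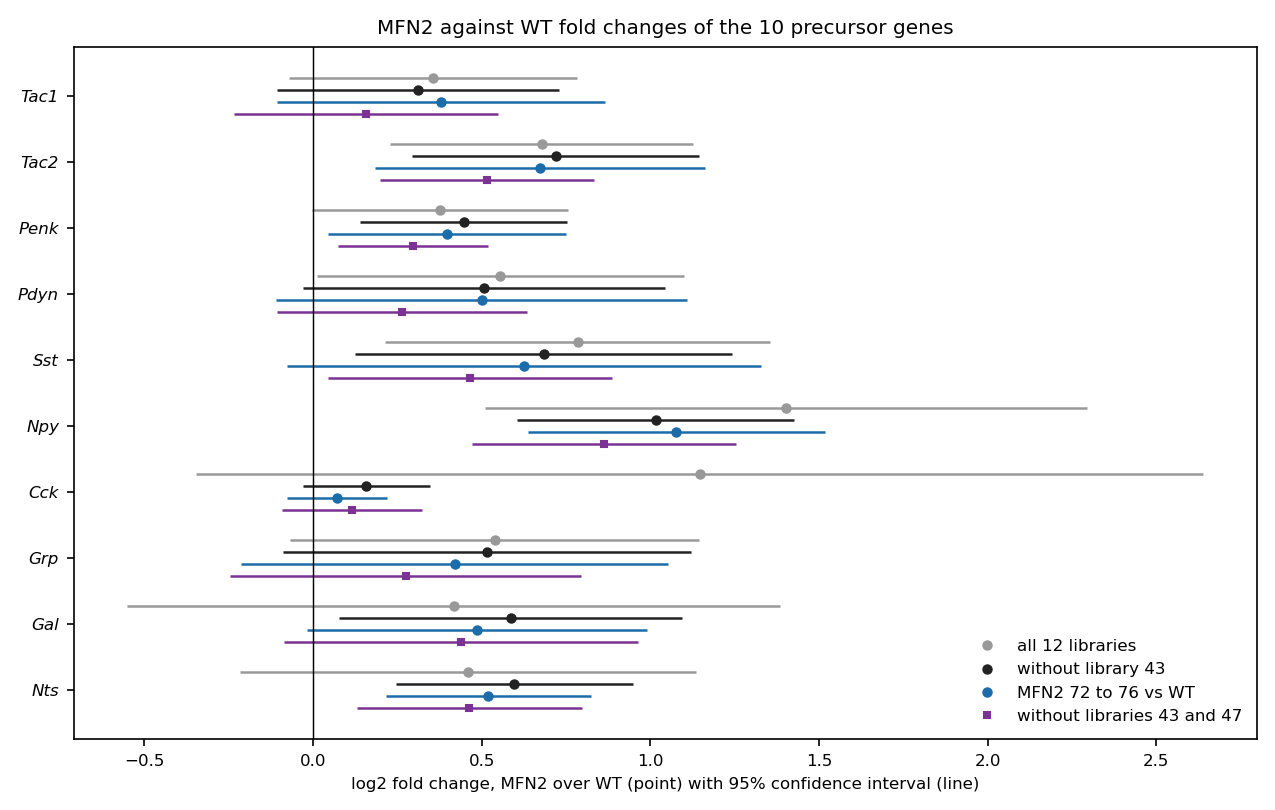
Log2 fold change of MFN2 over WT for each precursor gene (points) with its 95% confidence interval (lines) over all 12 libraries, without library 43, for libraries 72 to 76 against WT, and without libraries 43 and 47. All points lie right of 0, and the intervals of Npy and Tac2 stay right of 0 in the 4 sets of libraries.

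Of the 10, Npy, Nts and Tac2 were higher in MFN2 libraries 72 to 76 than in the 4 WT libraries. The log2 fold change was 1.08 for Npy (SE 0.20, 2.11-fold, adjusted p = 0.00331), 0.52 for Nts (SE 0.14, 1.43-fold, adjusted p = 0.0194) and 0.67 for Tac2 (SE 0.22, 1.59-fold, adjusted p = 0.0493). In this comparison 3746 of the 15743 genes tested passed (23.8%), with 11.1% of those tested higher in MFN2 and 12.7% lower, which is the background beside which 3 of 10 are read. With library sizes only, 2822 genes were higher and 1345 lower, so the balance of this background, here and for the lists below, depends on the scaling. The other 7 precursors had log2 fold changes of 0.07 (Cck) to 0.63 (Sst) with adjusted p-values from 0.0952 (Penk) to 0.491 (Cck). Npy passed with each of the 9 libraries left out in turn. Nts lost its call without library 74 (0.47, adjusted p = 0.0504), and Tac2 lost it without library 44, 45, 72, 73, 74 or 75 (0.64 to 0.74, adjusted p from 0.0791 to 0.0993). Without WT library 47 the values were 0.93 for Npy (adjusted p = 0.00625), 0.39 for Nts (adjusted p = 0.0289) and 0.47 for Tac2 (adjusted p = 0.0478). Pdyn and Tac1 passed only without WT library 44, at 0.76 (adjusted p = 0.0483) and 0.62 (adjusted p = 0.0223).

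Within the neighbouring numbers, MFN2 libraries 41 to 43 against the same WT libraries gave no call among the 10, with 1 of 15200 genes called (0.00658%). Npy was at 1.84 (SE 0.54), Sst at 1.03 (SE 0.32) and Cck at 2.09 (SE 0.72) on the log2 scale, each with an adjusted p of 0.622, and MFN2 and WT levels did not overlap for these 3, against 4.68% of the genes tested. With library 43 left out, which left 2 MFN2 libraries, Npy stood at 0.85 (SE 0.27), Tac2 at 0.84 (SE 0.30), Gal at 0.81 (SE 0.32), Nts at 0.77 (SE 0.24) and Penk at 0.57 (SE 0.21), each with an adjusted p of 0.862, and Sst at 0.83 (SE 0.37, adjusted p = 0.895), where 1 of 14988 genes passed (0.00667%). Cck then stood at 0.36 (SE 0.10, adjusted p = 0.862). Levels of these 7 did not overlap between the groups, with MFN2 higher, as for 7.41% of the genes tested. Both of these comparisons share their WT libraries with that of libraries 72 to 76, and their values are set side by side for that reason only.

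Among the MFN2 mice themselves, none of the 10 differed between libraries 72 to 76 and 41 to 43 at an adjusted p of 0.05, where 342 of 15633 genes did (2.19%). Cck had the largest of these changes, 2.03 lower in libraries 72 to 76 on the log2 scale (a log2 fold change of -2.03, SE 0.64, adjusted p = 0.114). Without library 43 it was lower by much less but passed (log2 fold change -0.29, SE 0.09, adjusted p = 0.0465), with libraries 41 and 42 at 19.6 and 21.8 CPM above all of libraries 72 to 76 at 16.0 to 18.2 CPM, in a comparison that called 15.3% of the genes tested and in which 16.5% were lower without overlap. The remaining 9 lay between -0.32 (Gal) and 0.25 (Tac1) there, with adjusted p-values from 0.338 upward.

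Receptors for these peptides were measured for 23 of 24 listed genes, and 19 passed the filter on low counts. None passed the test over all 12 libraries or without library 43, and their median log2 fold change was 0.17 over all 12 libraries and 0.19 without library 43. Sort1, the sortilin gene, a sorting receptor that also binds neurotensin, was the most abundant per length (39.3 RPKM). Sstr4 and Sstr2, both somatostatin receptors, had the largest changes over all 12 libraries, 2.38 (adjusted p = 0.301) and 0.75 (adjusted p = 0.294), which became 1.08 (adjusted p = 0.128) and 0.58 (adjusted p = 0.196) without library 43. Sstr4 was at 14.8 CPM in library 43, at 0.803 to 1.58 CPM in the other 7 MFN2 libraries and at 0.157 to 0.706 CPM in WT, so that it passed the filter on low counts (above 1 CPM in at least 3 libraries) only through MFN2 libraries. In libraries 72 to 76 against WT, 3 of the 19 receptors were higher and 4 lower, beside 11.1% and 12.7% of all genes tested; they are named here after their values were seen. Those higher were Sstr4 (log2 fold change 1.07, adjusted p = 0.049, tested only through the group where it is high), the kappa-opioid receptor gene Oprk1 (0.50, adjusted p = 0.0306) and the substance P receptor gene Tacr1 (0.32, adjusted p = 0.0181). Those lower were Ntsr2, a neurotensin receptor gene (-0.72, adjusted p = 7.64e-05), Sort1 (-0.45, adjusted p = 0.00125), the delta-opioid receptor gene Oprd1 (-0.43, adjusted p = 0.0307) and Cckbr (-0.29, adjusted p = 0.0499). Ntsr2 was at 90.1 to 111 CPM in WT and at 56.4 to 65.9 CPM in libraries 72 to 76. MFN2 libraries 41 and 42, at 101 and 89.3 CPM, lay within or just under the WT range, and library 43 was at 52.2 CPM.

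Genes that process and store peptides were all measured and tested, 21 of 21. None passed over all 12 libraries or without library 43, where their medians were 0.13 and 0.05. Cpe, the carboxypeptidase that trims the cut peptides, was the most abundant (278 RPKM), and Pcsk5, a precursor-cutting protease, and Cadps2, a vesicle release factor, had the largest log2 fold changes over all 12 libraries, 1.12 (adjusted p = 0.278) and 0.78 (adjusted p = 0.346), and stood at 0.70 (adjusted p = 0.073) and 0.39 (adjusted p = 0.133) without library 43. Library 43 held 13 of the 21 at their highest, against 25.9% of all genes tested, with Pcsk5 at 50.1 CPM against 5.69 to 16.9 CPM elsewhere and Cadps2 at 115.9 CPM against 18.8 to 37.5 CPM. In libraries 72 to 76 against WT, 3 of the 21 rose and 4 fell, beside 11.1% and 12.7% of all genes tested, and they are again named after their values were seen. Pcsk5 (0.74, adjusted p = 0.00609) and the granin genes Scg2 (0.47, adjusted p = 0.0153) and Chgb (0.32, adjusted p = 0.0112) rose. Pcsk1n, which encodes an inhibitor of the precursor-cutting enzyme PC1/3, fell most (-0.49, adjusted p = 0.000524), with Tpst2 (-0.25, adjusted p = 0.0368), Tpst1 (-0.20, adjusted p = 0.0283) and Cpe (-0.17, adjusted p = 0.0356). Libraries 41 and 42 did not share the lower levels of Pcsk1n, at 351 and 389 CPM against 299 to 366 CPM in WT. Nor did they share those of Cpe, at 863 and 793 CPM against 678 to 803 CPM in WT. For the 3 genes that rose, both libraries lay above the WT range. Pcsk5 was at 14.5 and 11.04 CPM against 5.69 to 10.2 CPM in WT. Scg2 was at 279 and 270 CPM against 165 to 236 CPM, and Chgb at 359 and 374 CPM against 275 to 350 CPM. Scg2 of library 43, at 232 CPM, lay within the WT range. Scg5, a chaperone of the precursor-cutting enzyme PC2, did not pass (0.91, adjusted p = 0.103), and its difference lay in libraries 75 and 76, at 335 and 305 CPM, against 96.2 to 155 CPM in the other 10 libraries.

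Of the 12 peptidases that break peptides down, none passed over all 12 libraries or without library 43, and 2 of the 12 rose in libraries 72 to 76 against WT, where 11.1% of all genes tested rose. These were Anpep, aminopeptidase N (0.87, adjusted p = 0.00594), and Mme, neprilysin, which cleaves enkephalin and substance P (0.57, adjusted p = 0.0202). They also had the largest changes over all 12 libraries, 0.79 (adjusted p = 0.278) and 0.52 (adjusted p = 0.254), and without library 43 stood at 0.68 (adjusted p = 0.146) and 0.55 (adjusted p = 0.0895). Anpep was at 1.51 to 1.99 CPM in WT and at 2.70 to 3.95 CPM in libraries 72 to 76. MFN2 libraries 41 and 42, at 1.79 and 1.87 CPM, lay within the WT range for Anpep, and library 43 was highest. Mme was at 8.71 to 15.2 CPM in WT and at 15.7 to 22.1 CPM in all 8 MFN2 libraries. Such a lack of overlap with MFN2 higher was shown by 0.979% of all genes tested. Npepps, the most abundant peptidase per length (16.2 RPKM), had a log2 fold change of -0.08 without library 43 (adjusted p = 0.389).

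Among 20 other listed precursor genes, 13 passed the filter. In libraries 72 to 76 against WT, 1 of them, Nms, was called higher, beside 11.1% of all genes tested, but it was tested only through the group where it is high. Nms, the neuromedin S gene, was at 0.568, 0.330, 0.310 and 0.365 CPM in WT and at 1.85, 0.803, 1.53, 1.66 and 0.969 CPM in libraries 72 to 76 (log2 fold change 1.78, SE 0.34, adjusted p = 0.00338). The levels of Nms rest on few reads, it passed the filter only through MFN2 libraries, and library 43 at 0.516 CPM lay within the WT range. Its call is therefore not read as a difference between the genotypes. Over all 12 libraries the changes of Nms (1.75, adjusted p = 0.254) and of Crh, the corticotropin-releasing hormone gene (1.35, adjusted p = 0.294), were the largest, and the list's median was 0.40. Without library 43 these were 1.87 (adjusted p = 0.0748), 0.88 (adjusted p = 0.166) and 0.38. Crh, too, was above 1 CPM in MFN2 libraries only. Both genes were thus tested, and ranked as the largest changes, only through the group where they are high, and that rank is not read as a result. Crh was highest in library 43, at 4.97 CPM against 0.365 to 2.14 CPM elsewhere. Nxph4, which encodes a secreted glycoprotein, was the most abundant per length (9.76 RPKM) and stood at a log2 fold change of 0.07 (adjusted p = 0.907) and at 0.20 without library 43 (adjusted p = 0.4).

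Genes listed for dorsal horn neuron identity were measured for 19 of 20. Their median log2 fold change was 0.03 over all 12 libraries and 0.14 without library 43, where that of the 10 neuropeptide precursors was 0.55 in both. The list did not move as a whole, so its median does not gauge dorsal horn content. In library 47 Lmx1b, Gbx1 and Ebf2 were at 0.365, 0.382 and 0.352 of the median of the other 10 libraries without library 43. Slc6a5 and Slc32a1 were at 1.04 and 0.997 of it. Calb2, the calretinin gene, was the most abundant per length (121 RPKM). Calb1, the calbindin gene, had a log2 fold change of 0.63 over all 12 libraries (adjusted p = 0.343) and 0.33 without library 43 (adjusted p = 0.116), where it was highest at 97.1 CPM against 21.9 to 39.4 CPM elsewhere. Library 43 held 3 of the 19 at their highest and 12 at their lowest, against 25.9% and 28.7% of all genes tested, among the latter Lmx1b at 4.04 CPM and Gbx1 at 0.704 CPM. In libraries 72 to 76 against WT, 2 of the 19 were higher and 1 was lower, beside 11.1% and 12.7% of all genes tested. Gad1, a GABA-synthesis gene, was among those higher (0.39, adjusted p = 0.0246), and Slc32a1, the vesicular GABA transporter gene, was lower (-0.18, adjusted p = 0.0264).

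**Figure D5:**
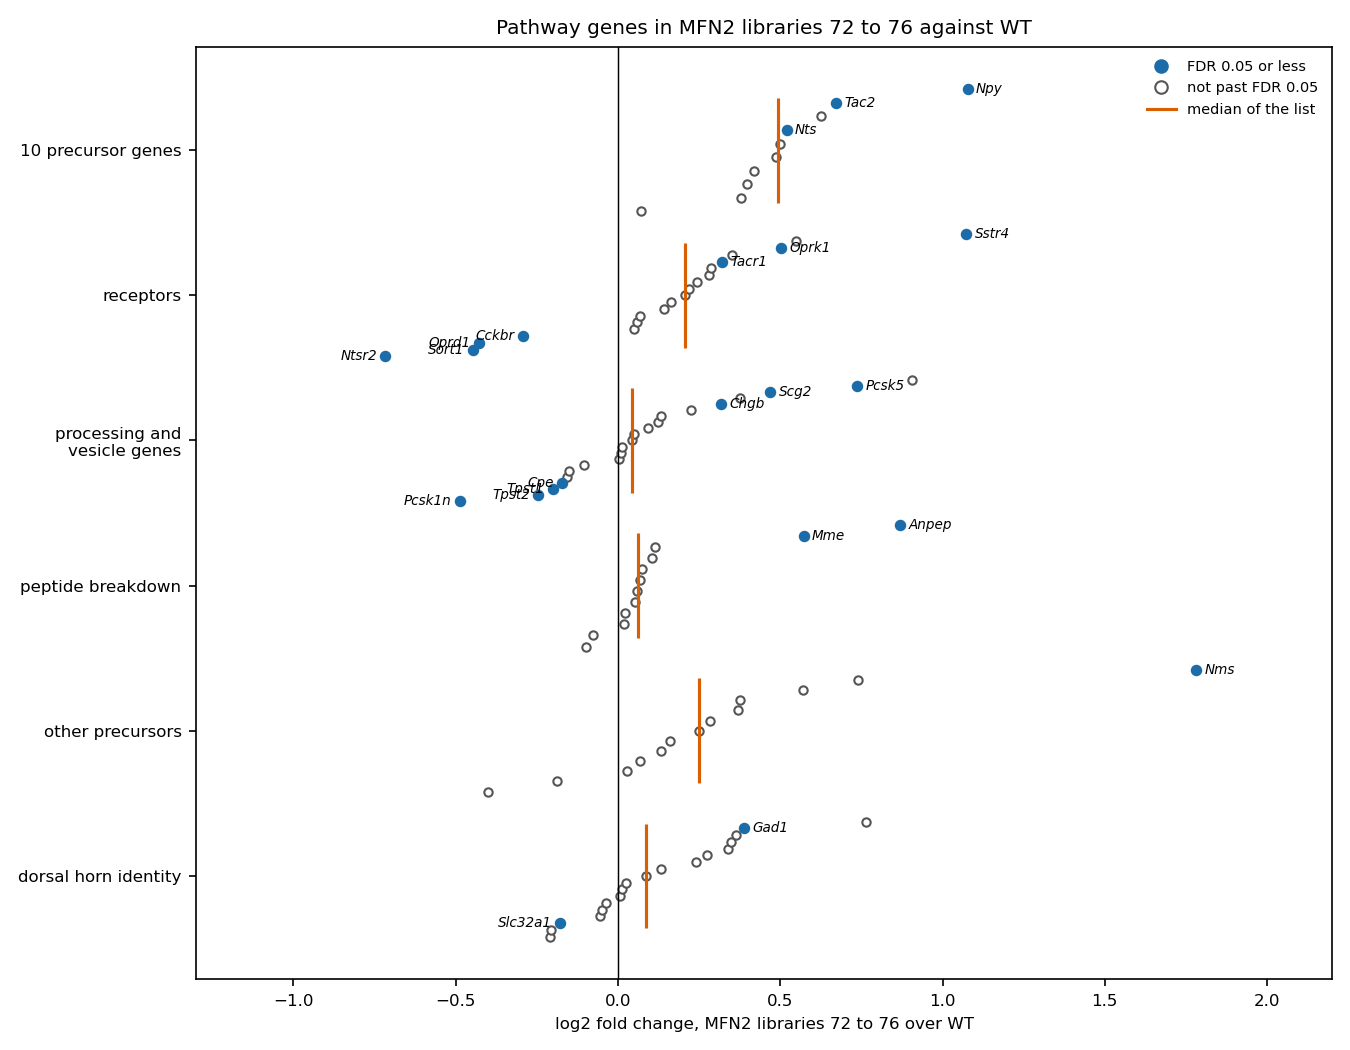
Log2 fold change of MFN2 libraries 72 to 76 over WT for the 10 precursors and the genes reported from 5 other lists, 1 point per gene, filled and named at an adjusted p of 0.05 or less, with the median of each whole list as a vertical line. The precursors' median of 0.49 lies right of the other medians, receptors and processing genes hold filled points on both sides, and 23.8% of all genes tested passed in this comparison. Sstr4 and Nms were tested only through the group where they are high.

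Genes outside the list whose levels followed each precursor most closely were found by the root mean square difference of log2 CPM, each gene centred on its own mean, over the 11 libraries without library 43 and 15932 candidates. Grp was followed most closely by Ebf2 (0.158) and Ebf3 (0.170), which encode transcription factors, and Ebf2 was also the second for Pdyn (0.164), after C130021I20Rik (0.143). Tac2 was nearest to Sstr2 (0.134) and Dclk3 (0.214), and Penk to D430019H16Rik (0.0804) and Pde11a (0.0960). Npy was nearest to Gpr101 (0.185) and Glra3 (0.196), and Sst to Grem1 (0.156) and Baiap3 (0.177). For Nts they were Myo5b (0.146) and Hpcal4 (0.157), and for Tac1 March4 (0.117) and Kcnip2 (0.123). Cck was nearest to Rfng (0.0729) and Cspg5 (0.0739), and Gal to Stx1a (0.237) and Dclk3 (0.245). These libraries include library 47, in which all of the precursors were low, and the differences describe 11 libraries with no test. With library 43 included, the nearest genes changed, to Fam81a (0.149) and Enc1 (0.152) for Cck and to Hoxb7 (0.282) and Crabp1 (0.319) for Gal. Hoxb7 belongs to the Hox family that was low in library 43, and Enc1 is a gene of forebrain neurons.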

How the data were processed

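RNA from 12 lumbar spinal cords was sequenced by the authors (poly(A) mRNA with a SMARTer-Stranded Total RNA kit, NextSeq, paired-end). Adapters were trimmed and reads aligned to GRCm38 with STAR. The deposited values are raw read counts per Ensembl gene, 1 file per library; how reads were assigned to genes, and whether by strand, is not given in the sources used here. Groups were taken from the titles. Symbols and exon lengths came from GENCODE M21 and promoters from RefSeq. Genes above 1 CPM in at least 3 libraries of a fit were tested with edgeR 4.0.16 (TMM scaling, robust quasi-likelihood F-test, Benjamini-Hochberg adjustment over all genes tested, threshold 0.05). Standard errors are the log2 fold change over the square root of F. RPKM is TMM-scaled CPM per kilobase of merged exons, and log2 CPM used a prior count of 2. DESeq2 1.42.0 and limma-voom 3.58.1, other scalings and filters, a term for the run of numbers and leaving out each library were alternatives.

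The fits were tested on simulated data with 200 genes changed by a log2 fold change of 1. The spread between simulated libraries was set at a dispersion of 0.05. In the comparison of all 12 libraries, 15798 genes were tested and 90.7% of the changed ones were recovered, with 7 false calls. The recovered share was 82% without library 43 (15693 genes tested, 5 false calls). For libraries 72 to 76 against WT it was 75.1% (15656 genes tested, 11 false calls). These shares hold at that set spread only and are not read as the power of these data. Every within-group pair of libraries differed beyond counting noise, so none was counted as a duplicate. Nothing in the labels says more of litters or sexes, so p-values measure the spread between these libraries. The depth sets the counting error: 1 read equals 0.0381 to 0.0522 CPM, and each precursor rested on 10 to 4800 reads per library. The 10 genes, the other lists and the comparisons were chosen with earlier results of these data known. Genes named from each list are its most abundant per length, the 2 with the largest absolute log2 fold change over all 12 libraries, and any past the threshold there or without library 43; all 10 precursors are always named. List genes outside this rule, such as those called for libraries 72 to 76 or named for their levels in library 43 or 47, were chosen after their values were seen. Likeness named the 2 nearest genes. An item of the dorsal horn identity list that this rule names is not reported here, though the list's counts and medians include it. Comparisons without libraries 43 and 47, and those with libraries 41 and 42 alone, were added after seeing the data.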

Additional observations from a re-analysis of the deposited data

Results flagged for a closer look

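In 20 groups (10 precursors in WT and in MFN2 mice), the gap of the most extreme library to its nearest neighbour, divided by the whole range of the group, was compared with Dixon's critical value at 95%; chance would pass about 1 in 20. It was passed in 4 groups. In MFN2 mice library 43 was the extreme for Cck (ratio 0.96) and Npy (ratio 0.85), both highest. In WT mice library 47 was the extreme for Penk (ratio 0.876) and Sst (ratio 0.829), both lowest. The Sst ratio of 0.82904 only just passed the critical value for 4 libraries, 0.829, and is at the threshold. Cck of library 43 was at 161 CPM against 16.0 to 21.8 CPM in the other 7 MFN2 libraries, and Npy at 23.0 against 5.61 to 8.22 CPM. Penk of library 47 was at 74.8 CPM against 121 to 127 CPM in the other 3 WT libraries, and Sst at 29.9 against 66.3 to 73.8 CPM. The marker sums that moved with both libraries are given beside the results above, and their part in them was not tested.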

How the results depend on the processing

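No precursor changed direction under any alternative run for MFN2 against WT over all 12 libraries, without library 43, or for libraries 72 to 76. Counts of called genes moved more. Over all 12 libraries (0 called) DESeq2 called 200, leaving out libraries 43 and 47 gave 2, and leaving out 1 library at a time gave 0 to 19, the most without library 43. Without library 43 (19 called) the count was 152 with no filter, 64 with library sizes only and 741 by DESeq2, and 0 (without library 46) to 1569 (without library 41) with 1 more library left out. For libraries 41 to 43 against WT (1 called) it was 0 with no filter, 5 by DESeq2 and 0 to 2 with 1 library left out. For libraries 72 to 76 against WT (3746 called) it was 2350 (without library 45) to 4517 (without library 44), and with library sizes only 4167, of which 2822 were higher and 1345 lower. For libraries 72 to 76 against 41 to 43 (342 called) it was 1795 by DESeq2, 2375 against libraries 41 and 42 only, and 31 to 2375 with 1 library left out. Library sizes alone moved the median log2 fold change of all genes over all 12 libraries to 0.054.

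DESeq2 called Npy over all 12 libraries (log2 fold change 1.42, adjusted p = 0.0332), and without library 43 it called Npy (adjusted p = 0.000165), Tac2 (0.0161), Nts (0.0186) and Penk (0.0369). With edgeR and without library 43, Npy also passed with no filter (adjusted p = 0.00359), with library sizes only (0.0482) and without library 41 (0.014), 42 (0.0327) or 44 (0.0294), and Nts without library 41 (0.0362). DESeq2 called Penk in libraries 72 to 76 against WT (adjusted p = 0.0231). With a term for the run of numbers over all 12 libraries no gene passed, and Npy was at 1.82 (adjusted p = 0.263). Signs turned only for precursors that were not called, in the other comparisons. For libraries 41 to 43 against WT, without library 41, Gal was at -0.39 and Nts at -0.21 (ranges -0.39 to 0.81 and -0.21 to 0.77 with 1 library left out). For libraries 72 to 76 against 41 to 43, Tac2 turned to 0.042 with library sizes only, and with libraries 41 and 42 only Penk was at -0.17, Npy at 0.23, Gal at -0.32 and Nts at -0.25. With 1 library left out the ranges there were -0.10 to 0.25 for Tac1, -0.16 to 0.10 for Tac2, -0.17 to 0.29 for Penk, -1.10 to 0.23 for Npy, -0.32 to 0.88 for Gal and -0.25 to 0.74 for Nts. The cause was not tested.

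No paired analysis was possible because no library number occurs in both genotypes. Read counts were low for Gal (10 to 168 per library) and Grp (19 to 122), and every comparison of genotypes draws on the same 4 WT libraries. Which of these limits weighs more was not tested.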
